A study of Mus musculus with 4 samples.

Results

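Transcripts of 10 genes for acute phase proteins were followed in whole-liver RNA of male mice: the serum amyloid A genes Saa1, Saa2, Saa3 and Saa4, the serum amyloid P gene Apcs, the orosomucoid genes Orm1 and Orm2, the haptoglobin gene Hp, the hemopexin gene Hpx and the lipocalin 2 gene Lcn2. Their probes were found through the RefSeq transcript that each array probe is designed on, not through measured values. This gave 11 probes for the 10 genes, among 56605 non-control probes and 23462 genes with a symbol. Lcn2 had 2 probes and each of the other 9 genes had 1, with a single spot per probe.

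Each of 4 groups was measured on 1 Agilent array with Cy5-labelled RNA. The control group was mice of natural aging without a drug, and the diabetic group was an aging type 2 diabetes model without a drug. The metformin group was the same model given metformin, a glucose-lowering biguanide. The combination group was the model given metformin together with astragalus polysaccharide, a carbohydrate fraction of Astragalus root. All 4 titles carry 60 d, with no statement of what the days count from. The sources used here do not give the strain, the age, the doses, the way diabetes was produced or whether several mice were pooled. No group received the polysaccharide alone, so the combination array shows both agents at once. With 1 array per group there is no replicate, no test and no p-value, and each difference below is one between 2 single arrays. Whole liver holds many cell types, and fewer cells of a type and less RNA per cell cannot be told apart.

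The acute phase response is the change in the blood proteins made by hepatocytes during infection, injury or inflammation. Interleukin-6 acts through its receptor, the shared subunit gp130 and the transcription factor STAT3, while interleukin-1 and tumour necrosis factor act through NF-kB, and C/EBP-beta and C/EBP-delta join both at many promoters. Proteins that accumulate in plasma are called positive acute phase proteins, and those that decline, such as albumin and transthyretin, negative ones. In mice, serum amyloid A and serum amyloid P are the major inducible proteins, whereas haptoglobin and hemopexin are made at a high level also in the absence of inflammation.

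Promoter windows are shown for the 3 inducible serum amyloid A genes, for Apcs and for Orm2, since the first 4 were lower on the combination than on the diabetic array and Orm2 differed there by less than the spot error. They are RefSeq sequences of GRCm38.p6, each running from 250 bases before to 50 bases after the gene's start and written in the direction of transcription. Capitals mark matches, on either strand, to the letters TTGCNNAA, used for C/EBP, or TTCNNNGAA, used for STAT factors, where N is any base.
Saa1, chr7:46742931-46743230, minus strand: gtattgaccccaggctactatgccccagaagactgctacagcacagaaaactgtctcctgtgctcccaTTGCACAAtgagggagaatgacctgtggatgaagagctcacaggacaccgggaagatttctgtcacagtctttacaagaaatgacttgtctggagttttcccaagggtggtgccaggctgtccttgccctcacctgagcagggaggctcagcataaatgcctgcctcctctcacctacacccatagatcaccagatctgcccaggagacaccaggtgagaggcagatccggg
Saa2, chr7:46751583-46751882, plus strand: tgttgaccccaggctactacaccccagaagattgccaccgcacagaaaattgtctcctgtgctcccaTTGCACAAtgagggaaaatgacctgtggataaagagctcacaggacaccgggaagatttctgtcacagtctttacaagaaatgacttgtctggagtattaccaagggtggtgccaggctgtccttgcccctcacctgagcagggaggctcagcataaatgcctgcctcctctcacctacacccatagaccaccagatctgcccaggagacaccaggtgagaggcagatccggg
Saa3, chr7:46715627-46715926, minus strand: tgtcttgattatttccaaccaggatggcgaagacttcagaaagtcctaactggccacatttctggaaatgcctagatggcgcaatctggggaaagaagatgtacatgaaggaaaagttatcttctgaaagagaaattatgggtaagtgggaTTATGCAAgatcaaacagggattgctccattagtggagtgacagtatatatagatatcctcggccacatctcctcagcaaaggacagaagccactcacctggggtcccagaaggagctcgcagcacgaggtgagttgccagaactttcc
Apcs, chr1:172895005-172895304, minus strand: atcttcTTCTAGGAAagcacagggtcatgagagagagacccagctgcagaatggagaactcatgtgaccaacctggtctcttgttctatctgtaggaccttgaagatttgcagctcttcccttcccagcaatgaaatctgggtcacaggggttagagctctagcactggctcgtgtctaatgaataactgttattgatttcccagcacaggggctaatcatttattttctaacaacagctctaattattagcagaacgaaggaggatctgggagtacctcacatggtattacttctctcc
Orm2, chr4:63362199-63362498, plus strand: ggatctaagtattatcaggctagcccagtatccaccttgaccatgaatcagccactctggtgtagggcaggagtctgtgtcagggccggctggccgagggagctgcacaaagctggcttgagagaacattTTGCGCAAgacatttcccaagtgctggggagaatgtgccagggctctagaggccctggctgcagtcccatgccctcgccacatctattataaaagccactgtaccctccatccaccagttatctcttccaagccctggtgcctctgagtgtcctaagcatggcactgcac

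Windows were held for 8 of the 10 genes, all except Orm1 and Hp. The C/EBP letters occurred in 7 of these 8 windows, against 10.8% of the 32851 windows in the table. Saa1 and Saa2 carried the same TTGCACAA, at 182 to 175 and 183 to 176 bases upstream of the start. The match in Saa3 lay 99 to 92 bases upstream, and that in Orm2, which reads alike on both strands, 120 to 113 bases upstream. Saa4 held 2 matches, Hpx and Lcn2 1 each and Apcs none. The STAT letters occurred in Apcs alone, 244 to 236 bases upstream, against 8.3% of all windows. Letters for NF-kB, GGGA, any base, TT, any base, CC, were in 0 of the 8 windows and in 1.2% of all. The Saa1 and Saa2 windows were 95.3% identical and the next closest pair 55.6%. Such matches are descriptions of these letters and not sites.

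Levels are log2 processed signals, scaled by subtracting from each array its 75th percentile over non-control probes. They compare a probe between arrays and never 1 probe with another. The scanner software's own error was 0.12 in log2 for a spot and 0.16 for a difference between 2 arrays (1 SD), except for Saa4 on the diabetic array, where it was 0.13 for the spot. Apart from that spot it was the same 8.0% of the signal whatever the brightness, so it does not tell 1 member spot from another. Repeated spots of probes at least as bright as the dimmest member spot differed between arrays with an SD of 0.08 to 0.09. These errors leave out the spread between mice, RNA preparations and hybridizations. All 44 member spots were well above background, and no spot on any array was saturated. On the combination array 13.2% of probes were brighter than the dimmest member spot, the highest such share of the 4 arrays. Of the 44 spots, 6 carried a mark as non-uniform or population outliers: Saa3, Saa4 and Apcs on the control array, Apcs on the metformin array, and Saa4 also on the diabetic and combination arrays. Values from marked spots are named as such below, and without them Saa4 has no comparison at all. A separate flag for an uneven background ring around a spot was not used to set spots aside. It was on for Saa3, Apcs, Orm1, Orm2 and Hp on all 4 arrays, and on some arrays for Saa1, Hpx and the second Lcn2 probe.

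The serum amyloid A genes encode apolipoproteins of high-density lipoprotein, and Saa1 and Saa2 are the main acute phase forms secreted by the mouse liver. All 4 family members were lowest on the combination array. Saa1 had processed signals of 53737, 47253, 51714 and 35612 across control, diabetic, metformin and combination. Its scaled levels were 4.82, 4.43, 4.32 and 3.89 in that order. The diabetic and metformin arrays differed by less than the spot error for Saa1, and the combination array lay 0.55 below the diabetic and 0.44 below the metformin array. Saa2 had signals of 45025, 42745, 41726 and 26787 and scaled levels of 4.57, 4.29, 4.01 and 3.47. It followed the order of Saa1, with the combination array 0.81 below the diabetic array, 0.54 below the metformin array and 1.09 below the control array. The promoters and transcripts of these neighbouring genes are alike, and whether their probes share signal was not tested.

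Saa3 encodes a serum amyloid A form that mouse macrophages and adipocytes also make during inflammation, besides hepatocytes. It showed the largest gap of the 10 genes. Its signals were 20806 (a marked spot), 29371, 29386 and 10707 in the same order. Scaled levels were 3.46, 3.75, 3.51 and 2.15. On scaled levels Saa3 was thus low on the combination array alone, and the other 3 arrays lay within 0.29 of each other. Without scaling, the marked control spot lay 0.50 below both the diabetic and the metformin array and 0.96 above the combination array. The combination array was 3.02-fold below the diabetic array (-1.60 in log2) and 2.56-fold below the metformin array (-1.36). Of all measured genes, 1.88% had a lower value than Saa3 in the first of these comparisons and 5.32% in the second. Against the marked control spot the combination array lay 1.30 lower. Saa3 was also the only one of the 10 genes with its highest level on the diabetic array, 0.29 above the marked control spot, and without scaling the diabetic and metformin arrays were level (0.00 apart). The summed level of 12 Kupffer cell and macrophage markers was 99.98, 66.2, 89.9 and 57.6 in the same order, in units of the 75th percentile. This sum was also lowest on the combination array. Unlike Saa3, it was highest on the control array and higher on the metformin than on the diabetic array. Its part in the Saa3 value was not tested.

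Saa4 encodes the constitutive serum amyloid A, which changes little in the classical acute phase. Its signals were 38167 (marked), 31710 (marked), 25182 and 18088 (marked) across control, diabetic, metformin and combination, and its scaled levels were 4.33, 3.86, 3.28 and 2.91. The 4 arrays formed a descending series in this order, with gaps of 0.47, 0.57 and 0.38 between neighbours, each past the spot error. The combination array lay 0.95 below the diabetic array. Since 3 of the 4 spots were marked, the reading for Saa4 rests on spots that the software set aside.

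Apcs encodes serum amyloid P, the pentraxin that serves in mice as the major acute phase protein and that binds amyloid fibrils. Its signals were 17300 (marked) for control, 15179 for diabetic, 18858 (marked) for metformin and 8724 for the combination. The scaled levels were 3.19, 2.80, 2.87 and 1.86. As with Saa3, the combination array stood below the other 3, which lay within 0.39 of each other. It was 1.92-fold below the diabetic array (-0.94), a comparison free of outlier marks though with the background ring flag on both spots. It was 2.02-fold below the metformin array (-1.01), which uses a marked spot. Of all measured genes, 6.70% had a lower value than Apcs against the diabetic array.

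**Figure D1:**
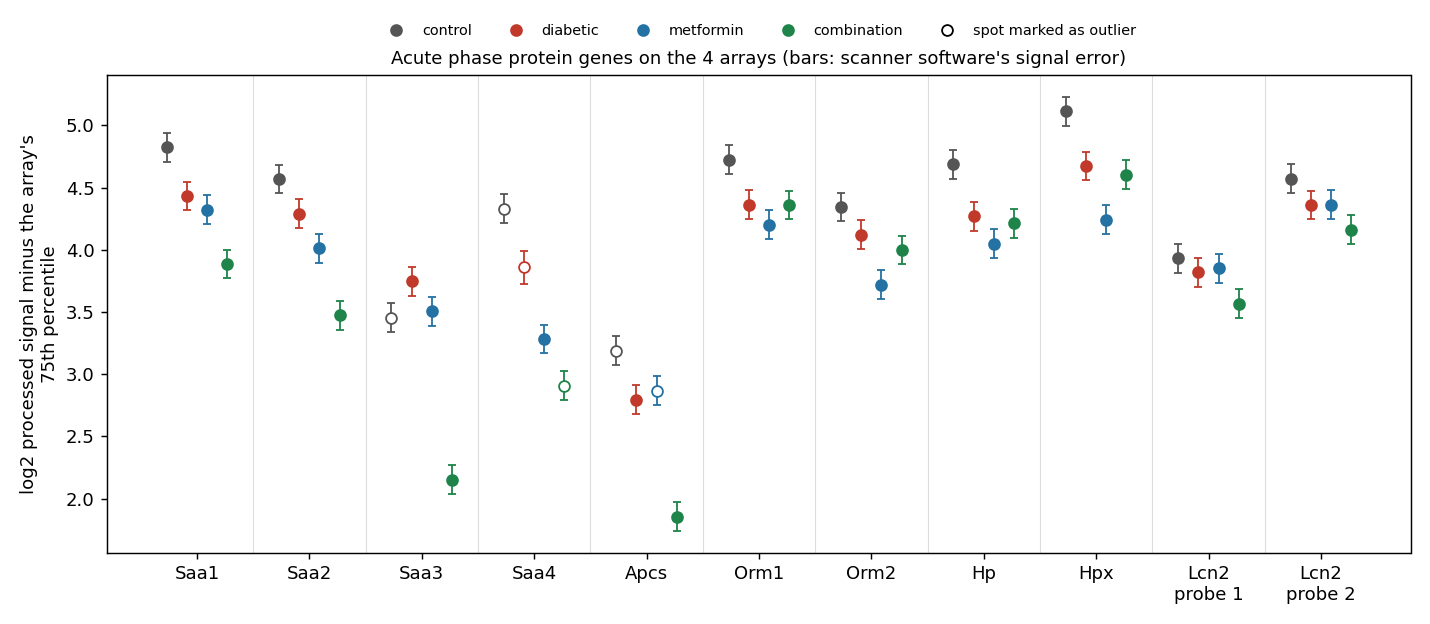
Scaled log2 level (vertical axis, log2 processed signal with the array's 75th percentile subtracted) of each of the 11 probes on the 4 arrays, 1 point per array with bars for the scanner software's error and open points for marked spots. Saa3 and Apcs sit at 2.15 and 1.86 on the combination array, well under their other 3 points, whereas Orm1, Orm2, Hp and Hpx are lowest on the metformin array; heights of different probes are not comparable.

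Orm1 and Orm2 encode orosomucoids, the alpha-1-acid glycoproteins that bind drugs and lipids in plasma. Orm1 had signals of 50129, 44999, 47633 and 49523 and scaled levels of 4.72, 4.36, 4.20 and 4.36 across control, diabetic, metformin and combination. The combination and diabetic arrays differed by 0.00 for Orm1, and both differed from the metformin array by no more than the spot error. Orm2 had signals of 38499, 38064, 34046 and 38543 and scaled levels of 4.34, 4.12, 3.72 and 4.00. The combination array lay 0.12 below the diabetic array for Orm2, within the spot error, and the metformin array lay 0.40 below it. Neither orosomucoid gene was set apart on the combination array.

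Haptoglobin binds free hemoglobin and hemopexin binds free heme, and the complexes are cleared through CD163 on macrophages and LRP1 respectively. Hp had signals of 48872, 42140, 42817 and 44693 and scaled levels of 4.69, 4.27, 4.05 and 4.21 in the same order of arrays. Hpx had signals of 65629, 55846, 48961 and 58580 and scaled levels of 5.11, 4.67, 4.24 and 4.60. For both genes the control array was highest and the metformin array lowest, while the combination and diabetic arrays differed by 0.06 for Hp and 0.07 for Hpx, less than the spot error. The metformin array lay 0.22 below the diabetic array for Hp and 0.43 below it for Hpx.

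Lcn2 encodes neutrophil gelatinase-associated lipocalin, which binds iron-carrying bacterial siderophores and is made by hepatocytes and neutrophils. Its first probe had signals of 28921, 30881, 37289 and 28562, and its second 45099, 44929, 53185 and 43145, in the order control, diabetic, metformin and combination. The mean scaled levels were 4.25, 4.09, 4.11 and 3.86. Lcn2 had the narrowest range of the 10 genes, 0.39 in log2. The combination array lay 0.23 below the diabetic and 0.24 below the metformin array, about 2 times the error of 0.12 for a mean of 2 probes. Its 2 probes gave differences within 0.10 of each other in every comparison, the closest check on probe error that these genes allow.

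Ordered by level, the genes fell into a group of 6 with their lowest value on the combination array (Saa1, Saa2, Saa3, Saa4, Apcs and Lcn2) and a group of 4 with their lowest value on the metformin array (Orm1, Orm2, Hp and Hpx). Without scaling between arrays the same count of 6 was lowest on the combination array, and the other 4 were divided between the diabetic and metformin arrays. For Orm1 and Hp the metformin array lay only 0.16 below the combination array, about the spot error. Over 10 other processing settings, the combination array was instead below the metformin array in 4 for Orm1, 4 for Hp and 2 for Orm2. The control array was highest for 9 of the 10 genes with scaling and for 6 of them without it.

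The first comparison asks how the liver of the diabetic model differed from that of natural aging. With marked spots left out, 0 of the 7 measured genes reached a 2-fold difference on the diabetic array, where 6.35% of 13475 genes were higher by that factor and 5.42% lower. With marked spots kept, the count was 0 of 10 against a background of 6.19% higher and 5.49% lower. The median difference of the 7 genes was -0.36, beside -0.09 for all measured genes, and the 10 genes ranged from -0.47 for Saa4 to 0.29 for Saa3. Bright genes as a class also lay lower on the diabetic array, with a median of -0.21 over 2487 genes. These had a log2 signal on both arrays of at least 13.09, that of the dimmest member spot, and are called genes of like brightness below. Member spots reached 16.00, so the class also holds genes dimmer than most members. The 12 measured hepatocyte markers had a median of -0.39. With quantile normalization the median of the 7 was -0.02, and Saa2, Orm2 and Lcn2 changed sign, to at most 0.06, 0.09 and 0.16 over the 10 other processing settings tried. Saa1, Orm1, Hp and Hpx kept a negative sign in all 10, but with values as near 0 as -0.04, -0.02, -0.07 and -0.09.

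In the second comparison, metformin against the diabetic model, the genes again lay close together. A 2-fold difference was reached by 0 of the 8 measured genes, where 9.46% of 13900 genes were higher by that factor and 3.24% lower. With marked spots kept it was 0 of 10, beside 9.24% and 3.15%. The median was -0.23 for the members, -0.07 for all genes and -0.19 for genes of like brightness. Saa4 (-0.57, with a marked spot), Hpx (-0.43) and Orm2 (-0.40) had the lowest values, and Apcs (0.07, with a marked spot) and Lcn2 (0.02) the highest. Hpx and Orm2 were lower in all 10 other settings, whereas Saa1 was lower in 5 and higher in 5.

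The third comparison, the combination against the diabetic model, divided the genes. With marked spots left out, 1 of the 9 measured genes, Saa3, was at least 2-fold lower and 0 were higher, where 5.85% of 14108 genes were lower by that factor and 3.88% higher. With marked spots kept it was 1 of 10, beside 5.82% lower and 3.91% higher. With so few genes a single one sets the share, and the count says no more than the value of Saa3. Among genes of like brightness, 0.509% of 2750 were at least 2-fold lower. That class must be bright on both arrays, so a gene near its limit that is 2-fold lower drops out. The filter itself thus lowers this share, which is no measure of how rare the gap of Saa3 is. The median was -0.23 for the 9 genes and -0.39 for all 10, beside 0.03 for all measured genes and 0.04 for genes of like brightness. Saa1, Saa2, Saa3, Saa4 and Apcs lay between -0.55 and -1.60, and Orm1, Orm2, Hp and Hpx between -0.12 and 0.00. No member of one set reached the values of the other, with Lcn2 (-0.23) between them. Because the sets were formed from these values, the gap is a description.

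The fourth comparison, the combination against metformin alone, bears on the addition of the polysaccharide. Saa3 was at least 2-fold lower, 1 of 8 measured genes, where 9.4% of 14363 genes were lower by that factor and 2.18% higher. With marked spots kept, Saa3 and Apcs passed, 2 of 10, beside 9.35% lower and 2.27% higher. Saa1 (-0.44), Saa2 (-0.54), Saa4 (-0.38, with a marked spot) and Lcn2 (-0.24) were lower by less. The median of the 8 genes was -0.04 and that of all measured genes 0.05, while genes of like brightness had a median of 0.21. Orm1 (0.16), Hp (0.16), Orm2 (0.28) and Hpx (0.36) lay near that class. Quantile normalization turned the sign of Orm1, Orm2 and Hp and brought Hpx to 0.00. Comparisons that use the same diabetic, metformin or combination array share its error, so like values in them are not independent.

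Set against the control array, which enters neither of these last comparisons, the combination array divided the genes in the same way. Saa4 (-1.42), Apcs (-1.33) and Saa3 (-1.30) lay lowest, each with a marked control spot, followed by Saa2 (-1.09) and Saa1 (-0.94). Hpx (-0.51), Hp (-0.47), Lcn2 (-0.39), Orm1 (-0.36) and Orm2 (-0.34) were closer to 0. Without scaling between arrays the first 5 genes lay between -1.08 and -0.59 and the other 5 between -0.16 and 0.00. The combination array is common to all 3 comparisons, so this is no independent repeat.

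**Figure D2:**
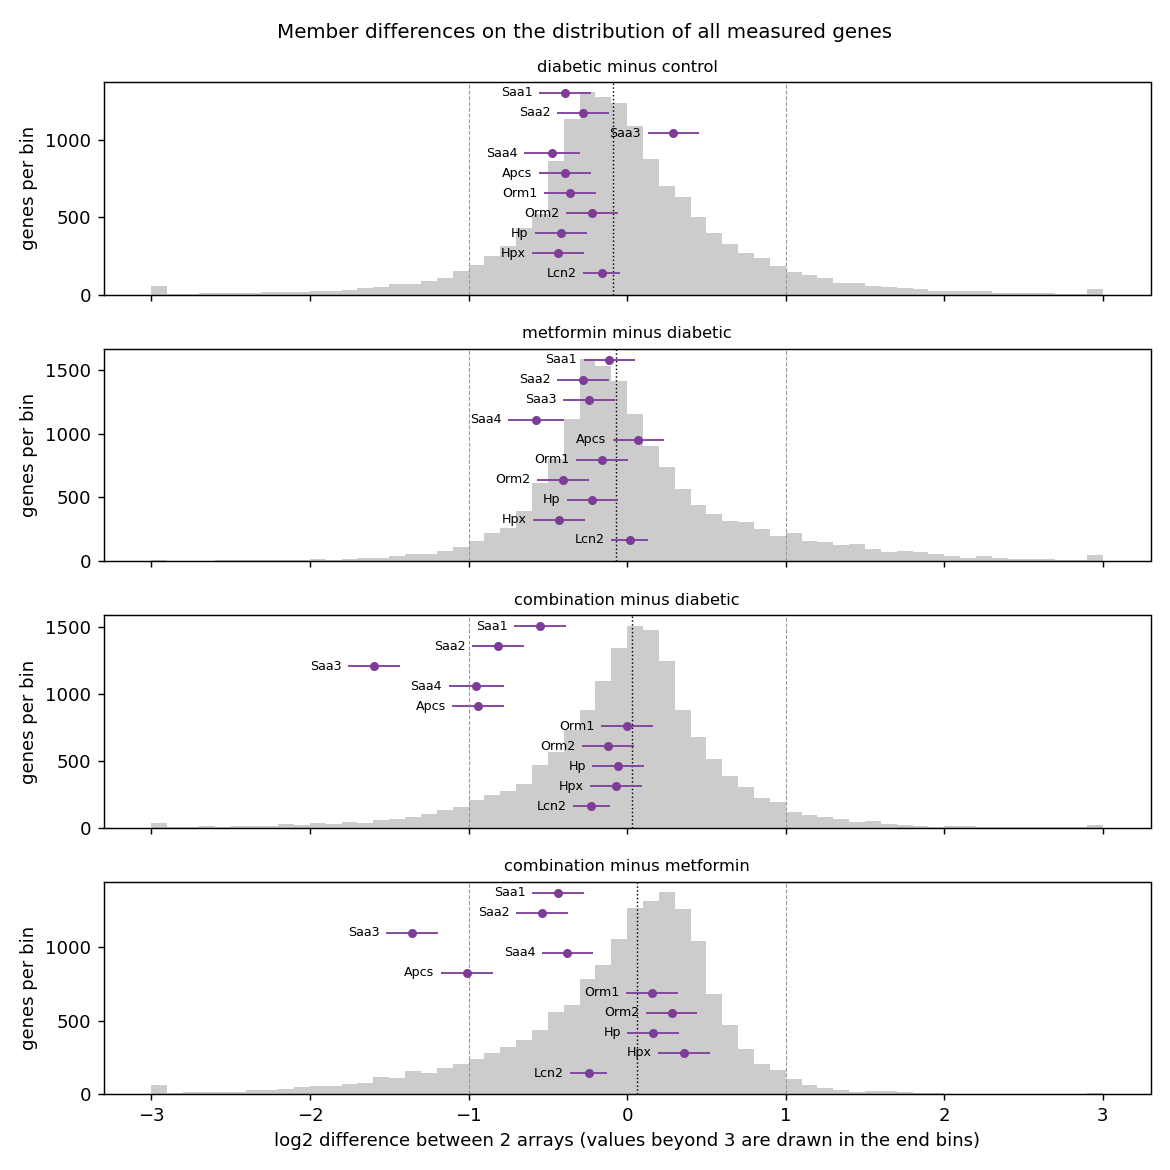
Log2 differences between 2 arrays for the 10 genes (points, with bars for the software's error of a difference and marked spots kept) over the histogram of all measured genes, 1 panel per comparison, with dashed lines at 2-fold and a dotted line at the median of all genes. In the combination minus diabetic panel Saa3 stands at -1.60 past the 2-fold line, Saa4, Apcs, Saa2 and Saa1 between -0.95 and -0.55, and Orm1, Orm2, Hp and Hpx near 0; vertical positions of the points only separate the names.

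The gap of Saa3 was at least 2-fold under every processing choice run. Over the reported and the 10 other processing settings its combination minus diabetic difference lay between -1.82 and -1.46 and its combination minus metformin difference between -1.60 and -1.35. Saa1, Saa2, Lcn2 and Apcs were below the diabetic array in all 10, and Saa4 in the 2 that keep its marked spots. Saa2 ranged from -1.04 to -0.57 and Apcs from -1.17 to -0.80. Orm1, Orm2, Hp and Hpx had values on both sides of 0.

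**Figure D3:**
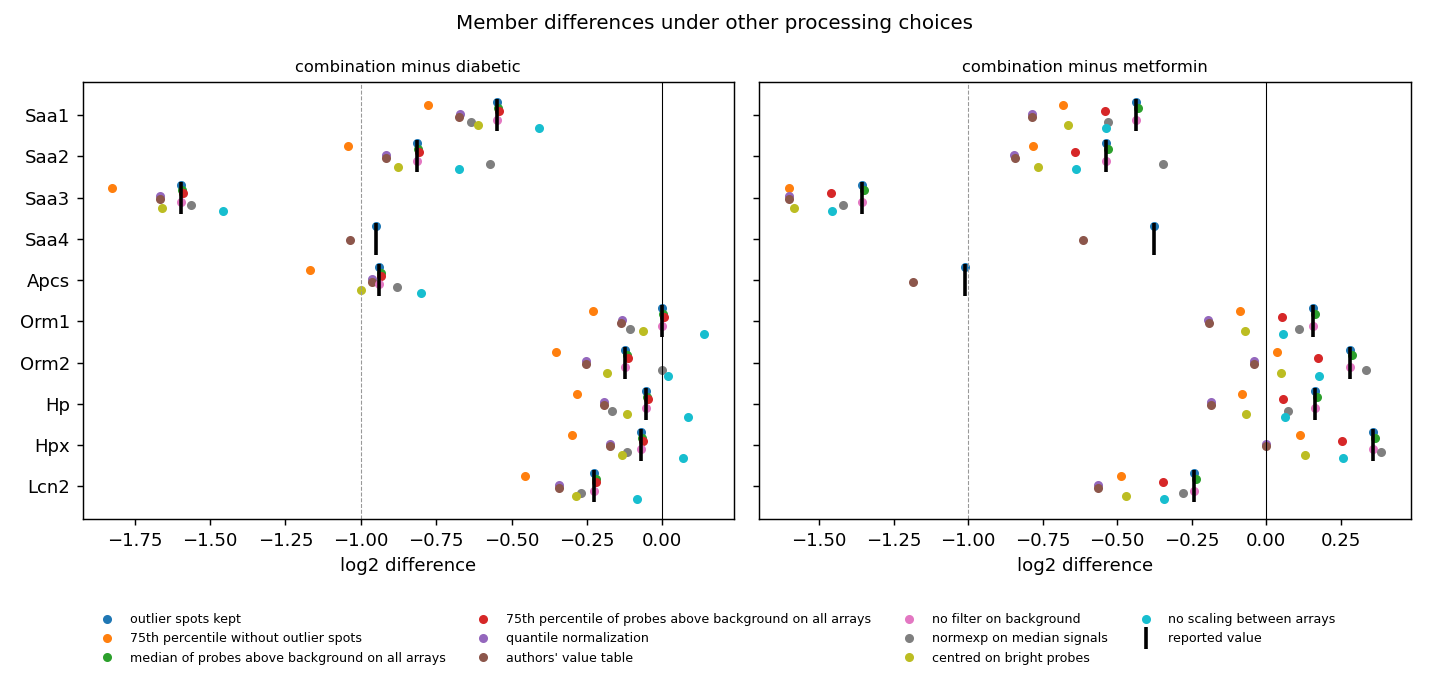
Log2 difference of each gene on the combination array against the diabetic array (left) and the metformin array (right), with the reported value as a black bar and 1 coloured point for each other way of processing; dashed lines mark 2-fold. Saa3 stays left of the 2-fold line in both panels, with values from -1.82 to -1.46 on the left, and Orm1, Orm2 and Hp lie on both sides of 0.

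Of 12 cytokine and chemokine genes that act on the response, 5 were measured on the diabetic and control arrays, 4 of them at least 2-fold lower on the diabetic array, where 5.42% of all genes were. On the metformin array 3 of 5 were at least 2-fold higher than on the diabetic array, beside 9.46% of all genes, and on the combination array 2 of 5, beside 3.88%. Il1b, which encodes interleukin-1 beta, differed by -1.23 between diabetic and control, by 1.34 between metformin and diabetic and by 1.31 between combination and diabetic. Il1a differed by -2.22, 2.29 and 1.31, and the chemokine gene Ccl2 by -1.91, 3.90 and 0.66, in the same comparisons. The chemokine gene Cxcl1 differed by -3.27 between diabetic and control. On the combination array Il1a and Il1b were thus higher than on the diabetic array, and Saa1, Saa2, Saa3 and Apcs lower. The probes of Il1a and Il1b were dim, with diabetic and combination levels of -4.20 and -2.89 for Il1a and -1.70 and -0.38 for Il1b. Ccl2 stood at -2.26 and -1.60 on these arrays, and Cxcl1 was brighter, at 0.62 and 0.79. The spot error given for the members does not cover the ligand probes. In combination against metformin 1 of 6 ligands, Ccl2 (-3.24), was at least 2-fold lower, with Il1a at -0.98, Cxcl1 at -0.64, Tnf at -0.42 and Il1b at -0.03. Il6 was above background on the metformin array only, by 1 of its 2 probes, and Osm on no array.

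Of 24 receptor, kinase and transcription factor genes, 22 were measured on the diabetic and control arrays, with a median of -0.65 beside -0.09 for all genes, 5 of them lower by 2-fold or more and 1 higher, where 5.42% and 6.35% of all genes were. Socs3, a STAT3 target that feeds back on interleukin-6 signalling, differed by -2.64, Il1r1, the interleukin-1 receptor, by -2.64 and Socs1 by -1.95. Stat3 differed by -0.64, Il6ra, the interleukin-6 receptor, by -0.67, Cebpd by -0.96 and Cebpb by -0.39. The shared receptor subunit gene Il6st differed by -0.60 with a marked spot. On the metformin array 2 of 21 were higher than on the diabetic array by 2-fold or more, the oncostatin M receptor gene Osmr (1.31) and Socs3 (1.06), and 2 were lower to that extent. These counts stand beside 9.46% of all genes higher and 3.24% lower, and the higher share is close to that of all genes. Among the lower genes was Il1rap (-1.38), by 1 of its 3 probes. Keeping marked spots gave 3 of 24 higher and 1 lower, and Il1rap, then at -0.76, was not past 2-fold. In combination against diabetic the list had a median of 0.14 over 23 genes, and Il1r1 (1.61) was the only gene at least 2-fold higher. Stat3 (0.05), Cebpb (0.19), Cebpd (0.37), Il6st (0.16), Socs3 (0.58) and Il6ra (0.56) were not lower on the combination array. Against metformin, 1 of 22 was at least 2-fold lower, Socs1 (-1.07), beside 9.4% of all genes, while Il6ra stood at 0.82, Il6st at -0.63, Socs3 at -0.48 and Stat3 at 0.09. Socs1 was dim, with scaled levels of -1.96, -3.90, -3.15 and -4.22 across control, diabetic, metformin and combination.

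Of 29 other positive acute phase and interleukin-6 target genes, 22 were measured on the diabetic and control arrays, with a median of -0.48, 4 at least 2-fold lower and 1 higher, beside 5.42% and 6.35% of all genes. The fibrinogen alpha chain gene Fga differed by -1.30 and Hamp, which encodes the iron hormone hepcidin, by 4.33. In metformin against diabetic, 4 of 23 were at least 2-fold higher, beside 9.46% of all genes, and 0 lower. Among the higher were the lipopolysaccharide co-receptor gene Cd14 (1.62) and Ms4a8a (1.47). In combination against diabetic, the list had a median of 0.01 over 22 genes, with Hamp (1.84) and Cd14 (1.27) at least 2-fold higher, 0 at least 2-fold lower and Tfpi2, an inhibitor of serine proteases, at -0.63. The lower levels of Saa1, Saa2, Saa3 and Apcs there were thus not seen across the wider list, which had 11 genes above and 11 below 0. In combination against metformin its median was 0.21 over 24 genes, with Ms4a8a at -0.97 and the serine protease inhibitor gene Serpina3n at 0.71.

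Among negative acute phase genes only Igfals reached a 2-fold difference. All 13 were below 0 in diabetic against control, with a median of -0.38 and 1 at least 2-fold lower, Igfals (-1.41), which encodes the acid-labile subunit that carries insulin-like growth factors. Serpina6, the corticosteroid-binding globulin gene, stood at -0.65 and the transthyretin gene Ttr at -0.53. In metformin against diabetic the median was -0.30, with Apoa1 (-0.36), Alb (-0.34) and Fetub (-0.34) furthest from 0. In combination against diabetic it was 0.05 over 12 genes, with Igfals at -0.77, the vitamin D binding protein gene Gc at 0.32 and Cyp2e1 at 0.26. The albumin gene Alb differed there by 0.02 with 1 probe. In combination against metformin the median was 0.36, with Igfals at -0.55, Cyp2e1 at 0.46, Apoa4 at 0.41 and Alb at 0.37. None of the negative acute phase genes was at least 2-fold apart in the last 3 comparisons.

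Genes for receptors and partners of these proteins were measured for 14 of 15. In diabetic against control 0 of 14 were at least 2-fold apart, with a median of -0.43. When marked spots were kept, 1 of 15 was at least 2-fold higher, the fatty acid scavenger receptor gene Cd36 (1.53), whose spots were marked on both arrays. Cd163, the macrophage receptor for the haptoglobin and hemoglobin complex, had scaled levels of 1.98 on the control array, 1.24 on the diabetic, then -0.62 with metformin and -0.51 with the combination, from 1 of its 2 probes. It was low on both drug arrays and differed from the diabetic array by -1.86 and -1.75. Lrp1, the hemopexin receptor gene, differed by -0.38, 0.04, -0.22 and -0.26 in the 4 comparisons, and Hmox1, the heme oxygenase gene, by -0.52, 0.76, -0.13 and -0.90. In the first comparison the furthest from 0 besides Cd163 (-0.74) were the iron transporter gene Slc11a1 (-0.77) and Fpr1 (-0.74). In metformin against diabetic Fpr2, a receptor for serum amyloid A, stood at 0.91 and Slc11a1 at 0.78. In combination against diabetic 1 of 14, Cd163, was at least 2-fold lower, beside 5.85% of all genes, with the toll-like receptor gene Tlr2 at -0.95 and Slc11a1 at -0.54. In combination against metformin 4 of 14 were at least 2-fold lower, beside 9.4% of all genes, among them Tlr2 (-1.45), Slc11a1 (-1.31) and Fpr2 (-1.15).

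**Figure D4:**
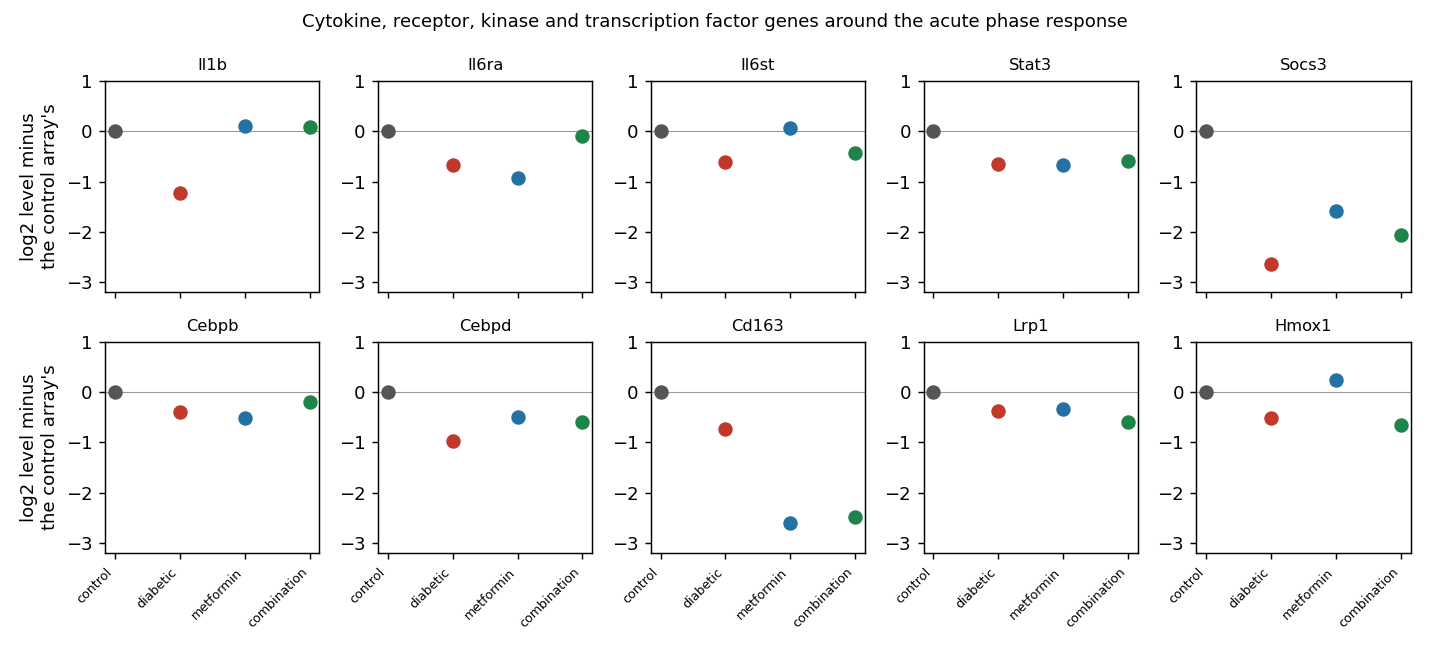
Scaled log2 level of 10 genes for cytokine signalling and for receptors and partners of the acute phase proteins, minus the level on the control array (vertical axis, log2), 1 point per array. Socs3 lies lowest on the diabetic array, Cd163 lies lowest on the metformin and combination arrays, and Stat3 is nearly level over the diabetic, metformin and combination arrays.

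Markers of the cell types that could contribute these transcripts were summed per array over the genes above background on all 4, in units of the array's 75th percentile. All 14 hepatocyte markers were present and summed to 393, 307, 244 and 325 across control, diabetic, metformin and combination. The arrays thus held liver RNA as labelled, with the highest sum on the control and the lowest on the metformin array, as for Orm1, Orm2, Hp and Hpx. Alb, Apoa1, Ttr, Ahsg, Trf and Cyp2e1 are also on the list of negative acute phase genes, so like values of these lists are not independent. Kupffer cell and macrophage markers, 12 of 12 present, summed to 99.98, 66.2, 89.9 and 57.6. All 12 were lower on the combination than on the metformin array, with a median of -0.83, and 8 of 12 were lower than on the diabetic array, with a median of -0.17. Neutrophil markers, 6 of 12 above background on every array, summed to 18.3, 8.02, 9.67 and 7.16, and the granule genes Ngp, Ltf, Elane, Mmp8 and Mmp9 were below background on the combination array. Ngp, Elane and Mmp9 were also below it on the metformin array, and Mmp8 and Mmp9 on the diabetic array, as was the receptor gene Cxcr2. Adipocyte markers, 7 of 8, summed to 12.6, 9.74, 16.6 and 12.7, with Plin1 below background on every array. Pancreatic enzyme genes, 6 of 12, summed to 73.0, 13.7, 20.9 and 7.47, erythroid genes, 5 of 7, to 68.3, 46.4, 46.7 and 58.0, and lymphocyte genes, 6 of 8, to 3.0, 0.785, 6.03 and 1.71. Macrophage, neutrophil and pancreatic sums were lowest on the combination array, as were Saa1, Saa2, Saa3, Saa4, Apcs and Lcn2, and the part of these cell types in the members' values was not tested.

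Genes with the most similar pattern were taken as those with the smallest root mean square distance between mean-centred levels over the 4 arrays, for members with a range of at least 2-fold. With marked spots left out this applied to Saa2, and among 12701 genes Col11a2 (distance 0.026), Krt42 (0.040) and Jak3 (0.049) were nearest. With marked spots kept, 14256 genes were compared, and the nearest to Saa2 were Col11a2, Rpap3 (0.039) and Krt42. The nearest to Saa3 were then Usp24 (0.062), Zbtb32 (0.092) and the lysozyme gene Lyz2 (0.096). The nearest to Apcs were Mzb1 (0.020), Slc7a7 (0.059) and Ctse (0.062), and to Saa4 Gm30931 (0.063), Caln1 (0.066) and Hsp90aa1 (0.073). No other of the 10 genes was among the nearest 3 of Saa2, Saa3, Saa4 or Apcs, and a match over 4 arrays rests on 4 values. Lyz2 had scaled levels of 2.25, 2.73, 2.36 and 1.18 across control, diabetic, metformin and combination. Several of the nearest genes were dim, with control and combination levels of -3.01 and -4.10 for Col11a2, -1.70 and -2.72 for Jak3 and -2.35 and -3.70 for Gm30931. Others were bright, such as Hsp90aa1 at 4.22 and 2.84.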

How the data were processed

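Whole-liver RNA of 4 groups was measured on 1 array each. Per the file headers, the deposited intensity is a red-channel processed signal, already corrected for background, made with Feature Extraction 11.5.1.1 on a grid built for mm9; Agilent Feature Extraction 10.7 is named in the submitters' processing notes. The authors' value table holds log2 values, which correlated at 0.999 or more with each array's log2 processed signal (slopes 0.986 to 1.01, every column's median 7.84); the sources used here do not give its normalization method, and it served as an alternative. Every value column was mapped to a sample (0 unmapped).

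Control spots and spots marked as non-uniform or population outliers (2.18% to 5.35% of 59305) were left out of probe values, and log2 signals were set against each array's 75th percentile (signals of 1897, 2187, 2586 and 2410 for control, diabetic, metformin and combination). Marked spots stayed in that percentile, since leaving them out moves it by -0.15 to -0.40 unequally between arrays. A gene was measured where a probe was well above background on both arrays, in at least 50% of its spots, and its probes were averaged. RefSeq accessions gave 33767 probes a symbol (GRCm38.p6). Genes at least 2-fold apart were counted, with no test. The precision is limited by the number of arrays.

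Alternatives covered outlier spots, scaling, quantile normalization, the background filter, the authors' table and normexp (limma 3.58.1, R 4.3.3; otherwise Python 3.11.15). The counting step was tested on simulated data. All 10 members are named, with a fixed set of signalling, receptor and albumin genes and the 3 genes furthest from 0 in each of 5 pathway lists, except that some list members are not reported here; Lyz2 levels were added after its values were seen. Members and lists were chosen with earlier results of these data known.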

Additional observations from a re-analysis of the deposited data

How the results depend on the processing

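No member was at least 2-fold apart in diabetic against control or metformin against diabetic under any alternative. In combination against diabetic, 1 gene was at least 2-fold lower as reported, 3 with the 75th percentile taken without marked spots (Saa2, Saa3 and Apcs), 2 with the authors' values (Saa3 and Saa4) and 2 with centring on bright probes (Saa3 and Apcs). In combination against metformin it was 1 as reported and 2 (Saa3 and Apcs) with marked spots kept or with the authors' values. Of 336 alternative values for the members, 224 stayed within the error and 112 moved by more. For the other named genes it was 728 and 238 of 966. Those genes were held to the members' median error and not to their own, which does not cover dim probes. No gene with a 2-fold difference turned its sign. Scaling moved the whole array: among all genes at least 2-fold apart, the lower share was 46.1% as reported for diabetic against control and 27.8% to 47.9% otherwise, 25.5% and 12% to 30.0% for metformin against diabetic, 60.2% and 43.7% to 80.7% for combination against diabetic, and 81.2% and 77.7% to 92.6% for combination against metformin. With no scaling the median of all genes was 0.12, 0.17, 0.17 and -0.05 in these comparisons. Centring on bright probes, no scaling and normexp on median signals were chosen after seeing the data; the planned normexp on mean signals was not run, since the columns used hold medians only. The cause of each move was not tested beyond the setting itself. No paired analysis was possible because each group has 1 array, and leaving out a replicate was not possible for the same reason. Signal does not limit the members, all well above background; the single array per group does, and gaps under about 0.16 in log2 are within spot error.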

Other observations

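Orm3, another orosomucoid gene that is not among the 10 and was looked at after its values were seen, had signals of 18969, 24898, 24753 and 34333 across control, diabetic, metformin and combination, the last from a marked spot. Its scaled levels were 3.32, 3.51, 3.26 and 3.83, highest on the combination array, where Saa1, Saa2, Saa3 and Apcs were lowest.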
